A study of Mus musculus with 2 samples.

Results

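Olfactory receptor genes, named Olfr in the mouse, form 537 stretches of sequence in the mm10 genome when each of the 1428 annotated genes is extended by 10 kb on either side and overlapping intervals are merged. These stretches, called clusters below, covered 22.9 Mb, or 0.846% of the chromosome sequence between the first and the last annotated gene or peak. Of the 86360 H4K12la peaks called in the lactate and control libraries together, 508 overlapped a cluster by at least 1 bp, 114 of the lactate library's 39768 peaks and 394 of the control library's 46592. The 1428 genes were 1110 protein-coding genes, 317 pseudogenes and 1 other RNA, on 19 chromosomes. A cluster held a median of 2 receptor genes, 253 clusters held a single gene, and the largest held 26.

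H4K12la is histone H4 with a lactyl group on lysine 12. The mark was mapped by CUT&Tag, in which a transposase tethered to antibody-bound chromatin cuts and tags the neighbouring DNA. The cells were Neuro2a, a mouse neuroblastoma line, grown on collagen I in DMEM with serum and given either 25 mM lactate or NaCl, the control. The study asked whether the mark regulates transcription. Each group was 1 library, so no replicate error exists and no difference below was tested between groups. The intervals given are exact 95% intervals, Poisson for densities and reads and binomial (Clopper-Pearson) for shares, and they cover counting error only. The lactate library was 3.43% deeper, as worked out from the deposited peak statistics, and the lowest summit called in either library held 11 overlapping reads. A position without a call may therefore carry signal below that level.

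Olfactory receptors are G protein-coupled receptors that bind odorants at the surface of sensory neurons of the nose. Their coding sequence lies in a single exon, the genes sit in long tandem arrays, and a mature sensory neuron transcribes a single receptor gene while the others are packed in heterochromatin bearing H3K9 and H4K20 methylation. Outside the nose most receptor genes are silent. Vomeronasal receptors, named Vmn1r and Vmn2r, are a separate receptor family with a similar tandem arrangement. Receptor genes are often close copies of each other, so reads from 1 gene can be placed at another; how the authors treated such reads is not given in the sources used here, and its part in the results below was not tested.

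Few receptor starts carried a peak, and the 3 that did are printed here to show how little of each window the peaks covered. Of 944 receptor genes with a start annotated by RefSeq, 1 had a lactate peak over the window reaching from 250 bases before the start to 50 after it (0.106%, interval 0.00268% to 0.589%). In the control library 2 did (0.212%, interval 0.0257% to 0.763%). The same window carried a lactate peak at 29.7% and a control peak at 18.6% of the 26081 other genes with such a window. In all 3 receptor windows printed below, the 50 bases from the annotated start open with ATG, the start codon. There the window lies around the beginning of the coding sequence, and a transcription start more than 250 bases upstream would fall outside it. The shares of receptor genes and of other genes may therefore not describe the same kind of position. Below, the sequence runs 5′ to 3′ along the gene, credited to RefSeq on GRCm38.p6, the assembly that mm10 names, and capitals mark the bases covered by the peak of the library named. All 3 genes are on the minus strand. The windows are chr7:106790950-106791249 for Olfr699, where a lactate peak covered 37 bases, chr10:129608430-129608729 for Olfr796, where a control peak covered 77, and chr16:59362167-59362466 for Olfr209, where a control peak covered 101.
Olfr699, lactate peak: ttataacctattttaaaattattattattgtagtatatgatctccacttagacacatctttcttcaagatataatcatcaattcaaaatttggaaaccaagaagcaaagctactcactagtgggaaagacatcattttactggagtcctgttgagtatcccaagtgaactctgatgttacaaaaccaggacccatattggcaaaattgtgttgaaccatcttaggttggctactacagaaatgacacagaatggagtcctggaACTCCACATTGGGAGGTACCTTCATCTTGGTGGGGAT
Olfr796, control peak: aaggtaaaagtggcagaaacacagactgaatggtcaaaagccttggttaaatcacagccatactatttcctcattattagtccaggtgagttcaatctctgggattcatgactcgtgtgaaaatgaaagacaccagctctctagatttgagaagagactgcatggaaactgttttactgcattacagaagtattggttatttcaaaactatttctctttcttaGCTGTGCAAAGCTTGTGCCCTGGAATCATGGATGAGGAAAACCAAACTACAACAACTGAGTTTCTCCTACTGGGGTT
Olfr209, control peak: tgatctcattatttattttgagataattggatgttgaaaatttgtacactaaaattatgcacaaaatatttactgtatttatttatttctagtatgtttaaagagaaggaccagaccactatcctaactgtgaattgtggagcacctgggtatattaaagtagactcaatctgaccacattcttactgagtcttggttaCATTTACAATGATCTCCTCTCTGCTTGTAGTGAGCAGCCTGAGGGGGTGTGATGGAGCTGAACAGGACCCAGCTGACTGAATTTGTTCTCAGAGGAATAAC
In each of the 3 windows the covered bases were the downstream end, so the peak ran into the gene and left the upstream part bare. The Olfr699 peak had a summit of 14 reads in the lactate library and overlapped, by 1 bp, a control peak of 14 reads that stayed clear of the window. The Olfr796 peak had a summit of 22 control reads and overlapped a lactate peak of 18 reads inside the gene. The Olfr209 peak, with 17 control reads, had no lactate counterpart.

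For contrast, 2 starts of other genes lying inside receptor clusters are shown, chosen after their values were seen. Zkscan8, a zinc finger protein gene, has its start window at chr13:21531065-21531364 on the minus strand, and a lactate peak with a summit of 26 reads covered 282 of its 300 bases. Trim21, a cytosolic antibody receptor and ubiquitin ligase, has its window at chr7:102565433-102565732 on the minus strand, and a lactate peak with 22 reads covered 249 bases. Both starts also carried a control peak, with summits of 19 reads at Zkscan8 and 14 at Trim21.
Zkscan8, lactate peak: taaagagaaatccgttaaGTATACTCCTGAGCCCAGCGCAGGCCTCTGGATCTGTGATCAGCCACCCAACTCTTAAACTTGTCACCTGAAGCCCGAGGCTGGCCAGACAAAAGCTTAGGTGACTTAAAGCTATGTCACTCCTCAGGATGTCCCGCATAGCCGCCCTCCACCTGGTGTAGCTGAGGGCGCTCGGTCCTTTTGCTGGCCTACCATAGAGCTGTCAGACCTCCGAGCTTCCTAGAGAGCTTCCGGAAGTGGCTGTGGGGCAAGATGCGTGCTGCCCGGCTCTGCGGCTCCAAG
Trim21, lactate peak: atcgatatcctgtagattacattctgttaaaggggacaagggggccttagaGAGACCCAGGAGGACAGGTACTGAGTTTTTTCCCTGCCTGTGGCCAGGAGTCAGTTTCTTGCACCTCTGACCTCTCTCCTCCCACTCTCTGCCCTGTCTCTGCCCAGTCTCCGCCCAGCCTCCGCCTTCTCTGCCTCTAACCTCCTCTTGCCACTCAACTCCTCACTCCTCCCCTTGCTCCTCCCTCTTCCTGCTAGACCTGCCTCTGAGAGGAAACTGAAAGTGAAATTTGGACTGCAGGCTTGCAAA
In letters, the receptor windows as a class differed from the other windows, with the same limit that annotated receptor starts may be start codons. The homeodomain core TAATTA, its own reverse complement and read on both strands, stood in 18.6% of the 944 receptor windows and in 4.83% of the other windows of the same length. The core of the early B-cell factor motif, CCCNNGGG, also the same on both strands, stood in 3.07% of receptor windows and 13.8% of the others. Neither string was found in the windows of Olfr699, Olfr796 or Olfr209.

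Receptor clusters carried far fewer peaks in the lactate library than in the control library. Per Mb of cluster there were 4.98 lactate peaks (interval 4.11 to 5.99) and 17.2 control peaks (interval 15.6 to 19.0), so that the control list held 3.46 times as many. The rest of the chromosomes held 14.8 lactate peaks per Mb (14.6 to 14.9) and 17.2 control peaks per Mb (17.1 to 17.4). In the control library the clusters thus had the density of the rest of the chromosomes, while in the lactate library their density was 2.97 times below it. The control value depended on the settings: relative to the rest, control density was -0.90 on the log2 scale (-1.49 to -0.37) with peaks of a −log10 q of at least 5, and 1.10 (0.78 to 1.40) with no flank around the genes. With the stricter threshold 18 lactate and 28 control peaks remained, a log2 ratio of -0.64 with an interval of -1.58 to 0.27 that includes 0. Lactate peaks made up 22.4% of the peaks of both lists in clusters (interval 18.9% to 26.3%) and 46.2% elsewhere (45.9% to 46.5%), and these intervals do not overlap.

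The same direction was seen in vomeronasal receptor clusters and in sequence far from annotated genes. Vomeronasal receptor clusters, built by the same rule, held 11.3 lactate peaks per Mb (9.70 to 12.98) and 33.5 control peaks per Mb (30.7 to 36.4), 2.97 times as many in the control list. Sequence more than 10 kb from any annotated gene held 5.60 lactate and 13.99 control peaks per Mb, a ratio of 2.50. Other protein-coding genes with their flanks went the other way, with 23.2 lactate and 20.2 control peaks per Mb. Lactate peaks made up 22.4% of both lists in olfactory clusters and 28.6% in sequence far from genes (28.0% to 29.2%), with intervals that do not overlap. The olfactory share overlapped in its interval with the vomeronasal share of 25.2% (22.1% to 28.5%).

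**Figure D1:**
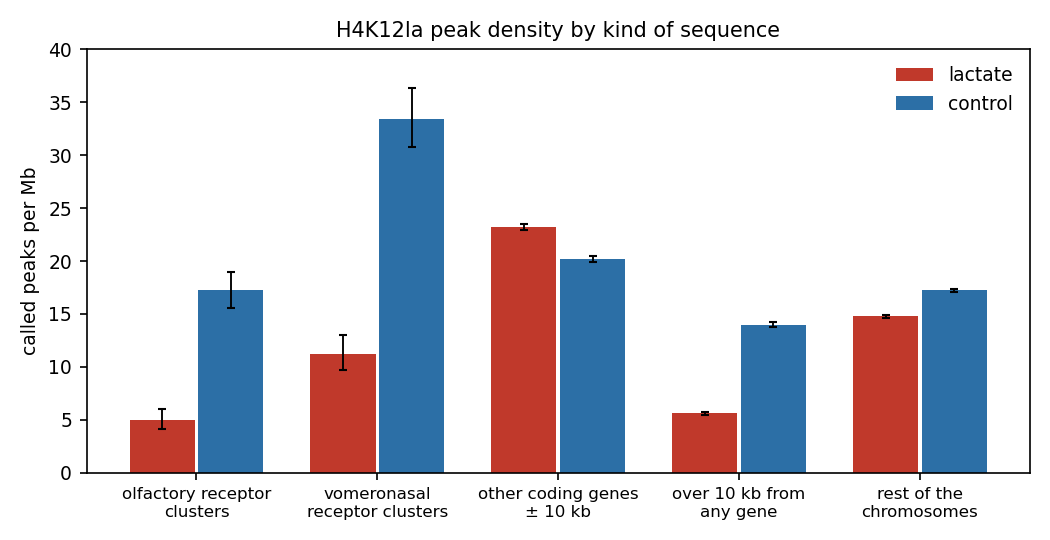
Called peaks per Mb (vertical axis) in the lactate library (left bar of each pair, red) and the control library (right bar, blue) for 5 kinds of sequence; error bars are exact Poisson 95% intervals, counting error only. The lactate bar is below the control bar in olfactory receptor clusters (4.98 and 17.2 per Mb), in vomeronasal clusters and far from genes, and above it at other protein-coding genes (23.2 and 20.2 per Mb).

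Most clusters had no peak in either library. A lactate peak was present in 87 clusters and a control peak in 218, of which 59 had both, 28 a lactate peak alone and 159 a control peak alone, while 291 had neither. Control peaks outnumbered lactate peaks in 183 clusters, lactate peaks outnumbered control peaks in 32, and 31 clusters had equal numbers. No cluster held more than 5 lactate peaks or 14 control peaks. Those 14 lay in a cluster of 13 genes at chr10:129637130-129812523, which held 3 lactate peaks, all of them overlapping control peaks. The 5 lactate peaks lay in another chromosome 10 cluster, chr10:129023860-129122423, which held 3 control peaks. The single cluster of 20 or more genes, chr2:86287818-86578064 with 26 genes of which 15 are coding, held 1 lactate and 1 control peak.

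Lactate density was lowest in the largest clusters. Clusters of a single receptor gene held 5.45 lactate peaks per Mb (3.68 to 7.78) and 13.3 control peaks (10.4 to 16.7). Clusters of 10 or more genes, of which there were 19, held 2.88 lactate peaks per Mb (1.31 to 5.46) and 16.6 control peaks (12.4 to 21.8). Lactate peaks were 29.1% of both lists in single-gene clusters (20.6% to 38.9%) and 14.8% in clusters of 10 or more genes (6.98% to 26.2%), with intervals that overlap. The sizes between lay between, at 21.9% for 2 to 4 genes and 21.7% for 5 to 9.

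Neighbouring clusters less than 1 Mb apart were joined into 64 loci, a distance chosen after values had been seen, and 17 of these loci held 20 or more receptor genes, 1229 genes together. All 17 had more control than lactate peaks. Lactate density across them ranged from 0.763 to 19.5 peaks per Mb with a median of 4.42, and control density from 5.45 to 52.1 with a median of 19.5. Another 29 loci, with 61 genes in all, had no peak in either library. Removing any 1 locus left between 0.271 and 0.349 lactate peaks per control peak, against 0.289 with all of them. Smaller loci could go the other way: chr11:50949009-52223987, with 11 genes, had 4 lactate and 2 control peaks, or 21.6 and 10.8 per Mb.

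Of these 17 loci, the densest in both libraries was on chromosome 10. This locus, chr10:128979914-130221128, holds 69 receptor genes in 21 clusters. It had 21 lactate peaks, or 19.5 per Mb (12.1 to 29.9), and 56 control peaks, or 52.1 per Mb (39.4 to 67.7). The rest of chromosome 10 had 18.1 lactate and 23.3 control peaks per Mb, so the interval of the lactate density included the chromosome's value and that of the control density lay above it. In each library 11 of the peaks overlapped a peak of the other. The widest peaks of all clusters also lay in this locus, 1757 bp in the lactate library and 1122 bp in the control library, and they overlapped each other. Without this locus, control density over the remaining clusters was 15.5 peaks per Mb.

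The longest array contrasted with it. The locus at chr2:85320967-90411674 holds 293 receptor genes in 78 clusters and had 5 lactate peaks, or 1.19 per Mb (0.39 to 2.77), against 82 control peaks, or 19.4 per Mb (15.5 to 24.1). Only 2 peaks of each library overlapped there. Other chromosome 2 loci had similar contrasts: chr2:111220853-112177982, with 47 genes, had 3 lactate and 30 control peaks, and chr2:36275060-37342732, with 37 genes, had 5 and 26. At chr16:58750152-59372240, with 32 genes, 3 lactate and 16 control peaks shared no position. Loci with few peaks in both libraries included chr19:11818077-13929972, with 91 genes and 1 lactate against 9 control peaks, and chr9:37701348-40198094, with 127 genes and 5 against 13. The smallest contrast among the 17 was on chromosome 14, where 37 genes had 3 lactate and 4 control peaks.

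The class I receptors, related to those of fish, lie around the beta-globin genes on chromosome 7. Their locus, chr7:102466773-105379317 with 158 receptor genes and 6 Hbb genes, held 8 lactate peaks, or 3.72 per Mb (1.61 to 7.33), and 35 control peaks, or 16.3 per Mb (11.3 to 22.6). The other loci together held 5.11 lactate and 17.3 control peaks per Mb, within those intervals. Control peaks touched 9.49% of the receptor genes of the beta-globin locus (5.41% to 15.2%) and 5.67% of the others (4.46% to 7.09%), and these intervals overlap. A second chromosome 7 locus, chr7:106667534-108904405 with 80 genes, had a smaller contrast, with 14 lactate and 25 control peaks.

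**Figure D2:**
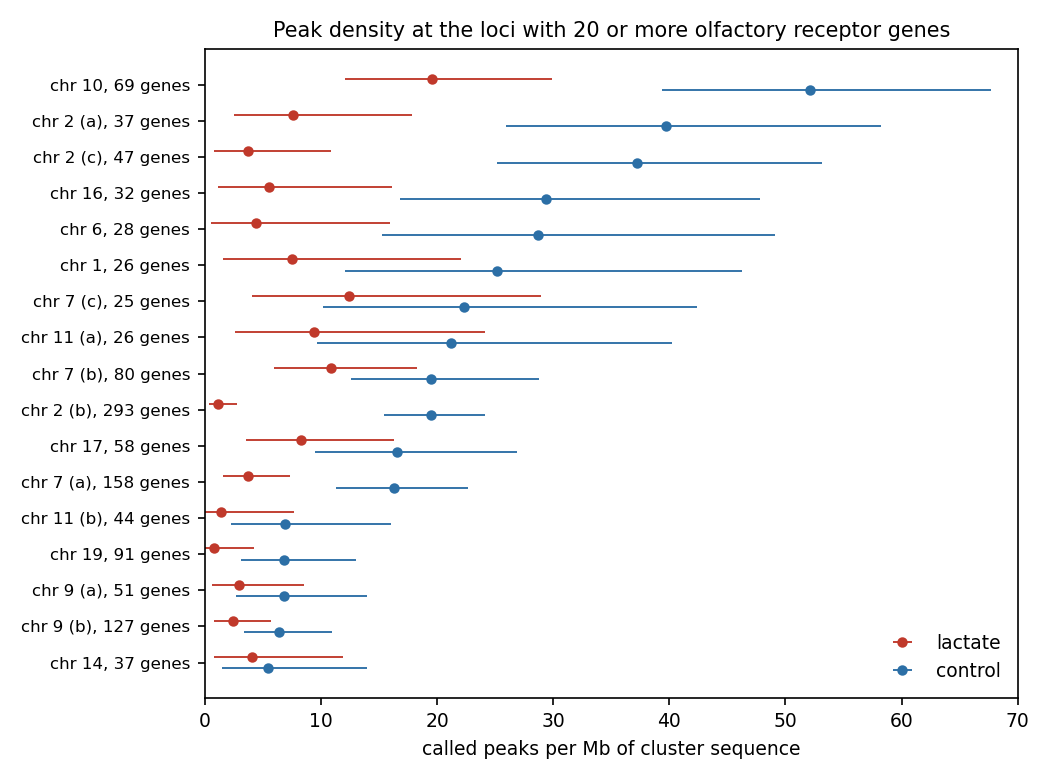
Called peaks per Mb of cluster sequence (horizontal axis) at the 17 loci with 20 or more receptor genes, ordered by control density; lactate is the upper red point of each pair and control the lower blue one, with exact Poisson 95% intervals as lines, and letters in brackets give the order along a chromosome. Every red point lies left of its blue point, from 19.5 and 52.1 per Mb on chromosome 10 to 4.09 and 5.45 on chromosome 14.

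**Figure D3:**
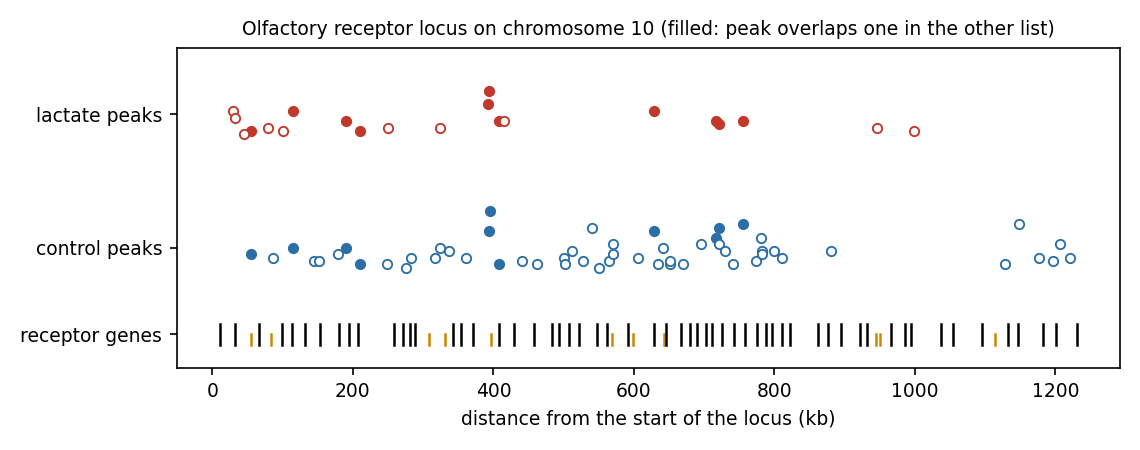
Peaks along the chromosome 10 locus, with distance in kb from its start on the horizontal axis, for the lactate library (top row, red) and the control library (middle row, blue) above ticks for receptor genes (tall black for coding genes, short ochre for pseudogenes and other RNA); filled points overlap a peak of the other library, and height within a row rises with summit reads. The 21 lactate points are spread over the locus with 2 of them in its last part, and the 56 control points are closest together in the middle of the locus, where most are open.

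Peaks in clusters were low in both libraries. The median summit held 14 reads in lactate and 14 in control clusters, against 18 and 15 reads for lactate and control peaks elsewhere. Local background, which MACS2 takes as the larger of the genome-wide and the nearby level, stood at the genome-wide floor of 3.06 reads for 57.9% of lactate cluster peaks and at 2.96 reads for 57.4% of control cluster peaks. Outside clusters 21.9% of lactate and 34.7% of control peaks stood at that floor. Median width was 194.5 bp for lactate and 190 bp for control cluster peaks. A −log10 q of at least 5 was reached by 18 of 114 lactate peaks and 28 of 394 control peaks, which is 15.8% and 7.11%, and outside clusters by 24.7% and 13.3%. The fold enrichment quoted below is the authors' value for each peak, summit over background within its own library.

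The 5 highest lactate peaks in clusters by fold all had a control partner. The highest was at chr11:58847010-58847603 with a fold of 6.20 and 29 reads (19.4 to 41.6), over the predicted gene Gm12258, 4968 bp from Olfr311. The next, with a fold of 6.19 and 26 reads, was the Zkscan8 start shown above. After these came chr2:36299885-36300115, which lay 1426 bp from Olfr335-ps and away from any other gene and had 23 reads (14.6 to 34.5). The control peak over the same place had the highest fold of all cluster peaks, 8.34, with 32 reads (21.9 to 45.2). These read intervals overlap. Another place far from other genes, chr9:38640520-38640946 near Olfr915, had 16 lactate reads and 30 control reads, with a control fold of 7.21.

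Among peaks called in the lactate library alone, the highest pair lay side by side at chr7:108376032-108376350 and chr7:108375436-108375823, about 7 kb from Olfr494, with 21 and 19 reads. After them came the peak inside Olfr90, at chr17:37085421-37085720, with a fold of 4.43 and 17 reads (9.90 to 27.2). Among peaks called in the control library alone, the highest was chr10:130127971-130128292, which lay 916 bp from Olfr824 with a fold of 5.81 and 24 reads (15.4 to 35.7). The next was chr2:36443432-36443897, which lay 8690 bp from Olfr340 and had a fold of 5.56 and 21 reads. Such lone peaks of both libraries reached 21 and 24 reads at most, against 29 and 32 for peaks with a partner.

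Cluster peaks of the control library seldom had a partner. Of 114 lactate peaks, 57 overlapped a control peak (50%, interval 40.5% to 59.5%), beside 43.4% of all lactate peaks. Of 394 control peaks, 56 overlapped a lactate peak (14.2%, 10.9% to 18.1%), beside 37.7% of all control peaks. In vomeronasal clusters the shares were 73.3% of lactate and 24.6% of control peaks, and far from genes 46.0% and 18.3%. A partner was commoner at higher summits. Among lactate cluster peaks it was found for 31.3% of those with 11 to 13 reads, 54.1% with 14 to 16 and 75.9% with 17 or more, and among lactate peaks outside clusters for 20%, 27.9% and 56.6%. Among control cluster peaks it was found for 5.59%, 12.2% and 41.2% in the same classes, and outside clusters for 20.6%, 32.1% and 58.8%. In every read class, then, the cluster share was above the outside share in lactate and below it in control. In lactate the cluster intervals at 11 to 13 reads (18.7% to 46.3%) and at 17 or more (56.46% to 89.7%) included the outside share. The interval at 14 to 16 lactate reads (36.9% to 70.5%) and those of the control classes did not. With 114 lactate and 394 control peaks to pair, at most a part of the control peaks could find a partner, so these shares also carry the difference in number.

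The overlapping peaks formed 58 pairs. The lactate summit had more reads in 23 pairs, the control summit in 26, and 9 were equal, with medians of 15 lactate and 17 control reads. Over the whole genome the lactate summit was the higher in 70.3% of 17922 pairs, with medians of 22 and 17 reads, while in clusters it was the higher in 39.7% (27.0% to 53.4%). In no single pair did the read intervals of the libraries lie apart. The pairs differed by their neighbours, a split made after values were seen. In the 16 pairs within 1 kb of a gene not named Olfr, lactate was higher in 13 and control in 3. Their medians were 21.5 lactate and 15.5 control reads. In the 42 pairs away from such genes, lactate was higher in 10, control in 23, and 9 were equal, with medians of 15 and 17 reads. The shares with the higher lactate summit were 81.3% (54.4% to 96.0%) and 23.8% (12.1% to 39.5%), with intervals that do not overlap. Summits of a pair lay a median of 74 bp apart, and 36 of the 58 pairs were within 100 bp.

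**Figure D4:**
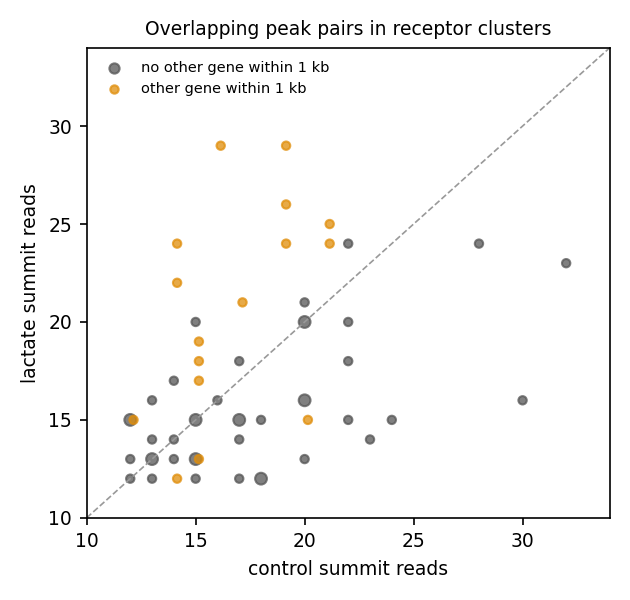
Summit reads of the 58 overlapping pairs, lactate on the vertical and control on the horizontal axis. The dashed line marks equal reads, and larger points stand for several pairs. Orange points (pairs within 1 kb of a gene not named Olfr) are moved slightly right to stay visible. Of the 16 orange pairs 13 lie above the line, and of the 42 grey pairs 23 lie below it.

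Within clusters, control summits lay preferentially inside the receptor genes. The genes take up 10.7% of cluster sequence and held 16 lactate and 87 control summits, or 6.55 (3.74 to 10.6) and 35.6 (28.5 to 43.9) per Mb. The first 1 kb outside a gene held 5 lactate and 11 control summits, or 1.77 (0.58 to 4.14) and 3.90 (1.95 to 6.98) per Mb. From 1 to 5 kb away there were 3.50 lactate and 15.2 control summits per Mb, and from 5 to 10 kb away 7.62 and 18.7. In the control library the gene itself was the densest zone, with an interval above those of the other zones. In the lactate library the intervals of the gene and of the outermost zone (5.79 to 9.85) overlapped.

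Restricting to gene models shorter than 1.5 kb, which are close to the coding exon alone, kept the control order and changed the lactate one. The 946 coding receptor models of this kind, with a median length of 945 bp, held 11 lactate summits, or 12.03 per Mb (6.00 to 21.5), and 61 control summits, or 66.7 per Mb (51.0 to 85.7). Those 61 summits lay in 60 genes. In the first 1 kb outside them there were 2.64 lactate and 3.17 control summits per Mb (1.16 to 6.90 in control), from 1 to 5 kb 2.89 and 16.1, and from 5 to 10 kb 5.92 (4.23 to 8.06 in lactate) and 17.8. Among these models the gene itself had the highest value in both libraries, though in lactate its interval overlapped that of the outermost zone. Receptor pseudogenes under the same length limit, 302 of them, had 8.56 lactate and 17.1 control summits per Mb inside (4.67 to 43.8 in control), an interval below that of the coding receptors. Short coding vomeronasal genes, 204 in number, had 0 lactate summits (interval 0 to 19.2 per Mb) and 20.9 control summits per Mb (5.68 to 53.4), with 4 summits behind that value.

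Other short genes differed by kind. The 7246 other pseudogenes under 1.5 kb had 17.4 lactate summits per Mb inside and 43.9 control summits (38.4 to 50.01), against 14.3 and 21.2 in the first 1 kb outside, so there too control summits were denser inside than beside the gene. The 1001 other coding models under 1.5 kb had 131 lactate and 91.2 control summits per Mb inside and 38.0 and 29.7 in the first 1 kb outside. Around those coding genes the flank thus held more than the sequence farther out, where from 1 to 5 kb there were 13.7 lactate and 16.3 control summits per Mb. Around receptor genes the control flank held fewer than the sequence farther out. Where strand was known, for 803 short receptor models, each model was divided into 3 equal stretches. The 10 lactate summits fell 6, 3 and 1 into the first, middle and last stretch, and the 52 control summits fell 12, 30 and 10, most of them in the middle.

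**Figure D5:**
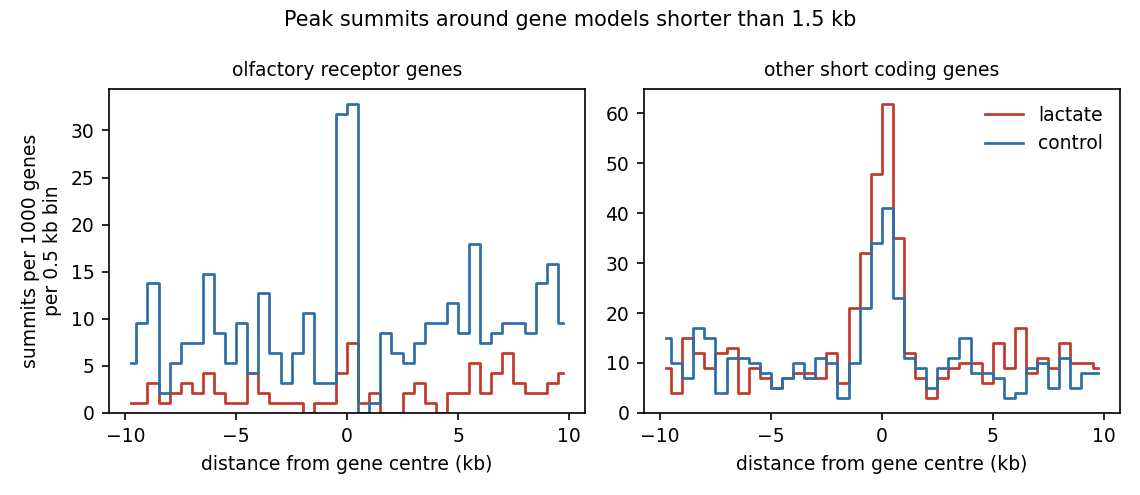
Peak summits per 1000 genes in bins of 0.5 kb (vertical axis, with a separate scale in each panel) by distance from the centre of gene models under 1.5 kb (horizontal axis, kb), for coding receptor genes on the left and other coding genes on the right; lactate is red and control blue. At receptor genes the 2 central bins reach 4.23 and 7.40 in lactate and 31.7 and 32.8 in control, with 1.06 lactate and 3.17 control in the bin before them and 1.06 lactate and 0 control in the bin after. At other short genes the centre is broader and the lactate line is higher, at 61.9 against 41.0 in the highest bin.

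Few receptor genes carried a call. Of 1428 genes, a peak touched 6 in lactate alone (0.420%), 77 in control alone (5.39%) and 10 in both (0.700%). Over all annotated genes the same calls were 9.65% lactate alone, 4.53% control alone and 21.6% both. Receptor genes were therefore far below the background for lactate and shared calls, and near it for calls in the control library alone. That background holds genes of every length, and a long gene is touched more easily. Among gene models under 1.5 kb, lactate summits lay in 1.16% of coding receptor genes, 1.23% of other pseudogenes and 11.1% of other coding genes. Control summits lay in 6.34%, 3.05% and 7.89% of them. Allowing 1 kb beside the gene gave 11 genes in lactate alone, 90 in control alone and 11 in both, or 0.770%, 6.30% and 0.770%, beside 10.4%, 5.41% and 24.5% of all annotated genes. Of the 1110 coding receptor genes 10 were called in lactate alone, 80 in control alone and 9 in both by that rule, beside 15%, 4.82% and 42.6% of all protein-coding genes. Of the 317 pseudogenes 1, 10 and 2 were.

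The 10 receptor genes touched in both libraries had low summits. Olfr268-ps1, a pseudogene on chromosome 2, had the highest fold, with 20 reads in lactate and 20 in control. Olfr418, at chr1:173270147-173271137, had 16 lactate reads (9.15 to 26.0) and 20 control reads (12.2 to 30.9). Olfr796, at chr10:129607547-129608479, had 18 and 22, and Olfr434, on chromosome 6, had 12 and 18. The remaining 6 were Olfr18, Olfr631, Olfr764-ps1, Olfr784, Olfr699 and Olfr222, with summits between 12 and 16 reads in lactate and between 12 and 15 in control. At each of the 10 the read intervals of the libraries overlapped.

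Of genes touched in the lactate library alone, Olfr90 on chromosome 17 had 17 reads, Olfr763 on chromosome 10 had 16, Olfr632 on chromosome 7 had 14, Olfr317 on chromosome 11 had 12, and the pseudogene Olfr542-ps1 had 11. Of the genes touched in the control library alone, the highest by fold were Olfr1170 on chromosome 2, Olfr177 on chromosome 16 and Olfr117 on chromosome 17, with 16 reads each. They were followed by Olfr797-ps1 with 17 reads and Olfr433 with 19. Such summits stood 0 to 8 reads above the lowest level that could be called.

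The clusters also held or met 220 genes whose symbols do not start with Olfr, among them the pseudogene Olrf445-ps1, whose name resembles a receptor's. They were 47 protein-coding genes, 116 pseudogenes, 31 lncRNAs and other short RNAs such as 11 snoRNAs and 9 tRNAs, and 153 of them lay wholly inside. Only peaks overlapping a cluster were counted for them, so a gene reaching beyond a cluster was examined in part. By that count lactate peaks alone touched 3, control peaks alone 13 and peaks of both libraries 13, beside 9.65%, 4.53% and 21.6% of all annotated genes. Of the 47 coding genes, 0 were touched in lactate alone, 3 in control alone, 10 in both and 34 in neither, beside 15%, 4.72% and 39.7% of all protein-coding genes touched in lactate alone, control alone and both. Just 10 of these 47 lay wholly inside a cluster, whereas the background counts peaks over whole genes, so the shares are not like for like. A start window carried a lactate peak at 7 of these 47 coding genes and a control peak at 6. Over all 26081 genes with such a window and not named Olfr, the shares were 29.7% and 18.6%. Peaks outside clusters were not counted for the 47, so this too is not like for like. Beside genes of any kind not named Olfr the lists resembled each other more. There 24 lactate and 39 control peaks lay within 1 kb of one, and 16 of each had a partner, or 66.7% and 41.0%. Away from them 45.6% of lactate and 11.3% of control peaks did.

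Most of the other named coding genes with peaks in both libraries had the higher summit in lactate, as did 70.3% of overlapping pairs over the whole genome. Ndufa10, a subunit of mitochondrial complex I, had 29 lactate and 19 control reads. The zinc finger genes Zfp174 and Zfp202 had 21 and 24 lactate reads against 17 and 14 control reads. Mgat1, which starts the branching of N-glycans, had 25 lactate and 21 control reads. H2-M3, a non-classical MHC class I gene that presents formylated peptides, had 19 and 15, and the synaptic scaffold gene Ppfia2 had 15 and 14. H2-M2, another MHC class I gene, went the other way, with 12 lactate and 16 control reads. By fold over local background Mgat1 and H2-M3 did so too, with 3.02 and 3.77 in lactate against 3.54 and 3.90 in control. Ndufa10, Zfp174, Zfp202 and Ppfia2 stayed higher in lactate by fold. At Ppfia2 and H2-M2 the lactate and control peaks did not overlap, so their summits lay at separate places. Rrm1, the large subunit of ribonucleotide reductase, and Fam160a2 reach beyond their clusters. The part of each inside a cluster was touched in the control library alone, with 14 and 15 reads.

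The genes that carry the odour signal or govern receptor choice were looked at by the 1 kb rule, with the protein-coding background of 15% lactate alone, 4.82% control alone and 42.6% both. Of 23 such genes, 13 were called in both libraries, 4 in lactate alone, 0 in control alone and 6 in neither. Those in both included the cyclic nucleotide channel subunit gene Cnga4, with 28 lactate and 17 control reads, and the adenylyl cyclase gene Adcy3, with 20 and 12. Pde1c, a phosphodiesterase, had 47 and 45. The transcription factor genes Ebf1 and Ebf3, of the family that binds receptor promoters, had 21 and 25 lactate reads against 18 and 20 control reads. Their relative Ebf2 went the other way, with 14 lactate and 20 control reads. So did the adhesion molecule gene Ncam2, with 12 and 17, Stoml3, a stomatin-like protein gene, with 12 and 16, the chloride channel gene Ano2, with 16 and 17, and the demethylase gene Kdm1a, with 29 and 30. Gnal, the olfactory G protein alpha subunit, and Lhx2 and its cofactor Ldb1 were called in lactate alone, with 15, 11 and 27 reads. Slc24a4, a calcium exchanger, was too, with 19. Omp, the olfactory marker protein gene, and Gng13, Cnga2, Rtp1, Rtp2 and Emx2 had no call.

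The 13 genes of a list for heterochromatin and receptor silencing were all called. By the same 1 kb rule, 42.6% of all protein-coding genes were called in both libraries, 15% in lactate alone and 4.82% in control alone. Of 13, 9 were called in both libraries and 4 in lactate alone, among them the H3K9 methyltransferase genes Ehmt2 and Suv39h1 with 20 and 17 reads and the H4K20 methyltransferase gene Kmt5b with 20. Cbx3 and Cbx5, genes of heterochromatin protein 1, had 43 and 36 lactate reads against 18 and 15 control reads. Lbr, the lamin B receptor gene, had 30 and 20. By fold over local background Lbr went the other way, at 3.51 in lactate and 3.90 in control, while Cbx3 and Cbx5 did not. As marks of identity, 5 of 12 neuroblastoma genes were called in both libraries, 1 in lactate alone, 1 in control alone and 5 in neither, the last including Th and Dbh. Of 10 markers of mature olfactory neurons 5 were called in both, 1 in lactate alone and 4 in neither. With so few genes, the calls in both libraries in the neuroblastoma and olfactory neuron lists were near that background. Of 5 markers of other olfactory epithelial cells 1, Trp63, was called, in control alone. A called peak is not a measure of transcription, so these calls do not settle which of these genes the cells used.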

How the data were processed

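H4K12la CUT&Tag was carried out on Neuro2a cells, 1 library per treatment, read as 150-base pairs, per the labels' protocols. BWA, deepTools and MACS2 were used with mm10, per the submitters' processing notes; versions, calling settings, handling of multiply mapped reads and use of an input or spike-in were not given in the sources used here. For each library the authors deposited a separate peak list. The deposited fold is a ratio of summit to local background, each deposited −log10 p or −log10 q refers to the summit, and the deposited score is the −log10 q times 10. The lowest −log10 q was 1.30 in both lists, a q-value of 0.05. With calling done library by library, total H4K12la has no common scale here.

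From fold and −log10 p the whole-number summit reads and the background were solved, to within 0.001 of the deposited −log10 p, for all but 1 peak, which lay outside the clusters. This was checked on simulated peaks. Background reads gave relative depth, since read totals are not in the lists. The 6 mitochondrial lines per list were left out. Gene positions were those of RefSeq on GRCm38.p6, as were promoter windows. Sharing means an overlap of at least 1 bp. Members, lists and tests were chosen with earlier results of these data known. Named items follow a rule: the 5 highest-fold cluster peaks with and without a partner per library, up to 15 receptor genes touched in both libraries, the 5 highest in 1 library alone, up to 15 other coding genes touched, leaving out symbols that start Gm or end in Rik, clusters of at least 20 genes, and every list member by call. Values of named list genes are given in part, and some list genes are not reported here by name. Alternatives covered thresholds, list length, flanks, cluster definition, overlap rules and distances. Python 3.11.15, numpy 2.4.6, pandas 2.3.3, scipy 1.17.1 and matplotlib 3.10.9 were used.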

Additional observations from a re-analysis of the deposited data

How the results depend on the processing

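No paired analysis was possible because each group was 1 library. Of 123 values recomputed under 16 alternatives, 78 stayed within their counting interval, or within 1.5 times for a count, and 45 moved. No alternative turned the direction of a ratio whose interval lay off 0; the control density relative to the rest, whose interval included 0, took either sign. The log2 lactate over control ratio of cluster peak counts, -1.79 as reported, was below 0 under all 11 alternatives tried for it, from -2.49 to -0.64. At a −log10 q of at least 3, density was 2.49 lactate and 7.47 control peaks per Mb, 18.1% of control peaks were shared, and 7, 43 and 4 genes were called in lactate alone, control alone and both. At a −log10 q of at least 5, density was 0.787 and 1.22 per Mb, the log2 ratio -0.64 with an interval of -1.58 to 0.27 that includes 0, and the log2 density relative to the rest -2.22 in lactate and -0.90 in control. Shares with a partner were then 33.3% and 21.4%, gene calls 2, 3 and 2, and 14.3% of control peaks touched a receptor gene. With lists of equal length the control density was 14.9 per Mb. With no flank the densities were 6.55 and 36.8 per Mb, the log2 ratio -2.49, the log2 density relative to the rest -1.17 in lactate and 1.10 in control, and 62.5% of lactate peaks were shared; 100% of the peaks of both libraries touch a gene by that construction. With 50 kb flanks lactate density was 8.21 per Mb, the log2 ratio -1.12, the lactate density relative to the rest -0.85, 24.3% of control peaks were shared, and 5.37% of lactate and 13.9% of control peaks touched a gene. With clusters of at least 5 genes alone, 6, 38 and 5 genes were called. Leaving out peaks within 1 kb of other genes gave 3.93 and 15.5 peaks per Mb, and -1.91 and -0.15 relative to the rest. There peaks were dropped in clusters alone, with cluster length and the rest unchanged, so these values could only fall. Requiring the summit inside the other peak gave 40.4% of lactate peaks shared. Counting peaks touching the gene gave 6 genes in lactate alone, and within 5 kb gave 26, 208 and 31. Without the chromosome 10 locus, an alternative chosen after seeing the data, the control density relative to the rest was -0.15 on the log2 scale, against -0.00093 as reported. The causes were not tested beyond what each alternative changes by construction.

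With summits of 11 to 16 reads at most cluster peaks, a position called in 1 library alone can differ from the other by a few reads. Read intervals overlapped in all 58 pairs, but a pair needed a call in both libraries, and intervals at such read numbers are wide. The overlap therefore cannot tell number of peaks from summit height, since a call itself depends on height. The contrast is given here as a number of called peaks. 1 library per group leaves treatment and library unable to be told apart. Peak lists hold called positions and give no level between them.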
